A study of Mus musculus with 2 samples.

Results

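The genes described here are 35 genes of the Fanconi anemia and homologous recombination pathways, among 21474 protein-coding genes in the tables. They were chosen by name and not by their level, although earlier results of these data were known. All 35 have a row. They were measured in G1E-ER4, an immortalized mouse erythroid line without functional endogenous Gata1, to which Gata1 was restored as a fusion with an estrogen receptor domain, so that estradiol turns its activity on. Both libraries came from cells kept in 10 nM 17beta-estradiol for 7 hours, and polyA RNA was sequenced in paired ends. They form 1 group, labelled biological replicates 1 and 2, and both point to 1 biological sample record; differences between them may thus be technical. No untreated sample or other time was analysed here, so no effect of estradiol is measured and no test between conditions was run. Pairs of values below are those of replicate 1 and then replicate 2.

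The Fanconi pathway repairs crosslinks that join the strands of DNA. A nuclear core complex, with FANCL as its ubiquitin ligase, puts ubiquitin on the FANCD2 and FANCI clamp, and nucleases held by SLX4 then cut beside the crosslink. The resulting break is repaired by homologous recombination, in which ends are resected, a matching sequence is found with the help of BRCA1, PALB2 and BRCA2, and joined molecules are later taken apart. In people, inherited loss of the pathway causes Fanconi anemia, a disease of bone marrow failure, and blood precursors depend on it.

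The libraries held 59610969 and 44689405 expected counts. The erythroid label fits the markers, with 8 of 8 erythroid markers detected at a summed TPM (transcript abundance scaled for length and depth) of 23865 and 16266. One of the 8 is Gata1, whose reads may come from the fusion given to the line, so its detection is no test of the label. Hbb-bs and Hba-a1 gave most of the sum. In transcripts annotated as protein-coding, Hbb-bs had 11.4 and 33.2 TPM and Hba-a1 94.4 and 155. Of the other marker lists, 2 of 5 megakaryocyte genes were detected (Gp1ba and Itga2b, summed TPM of the list 58.9 and 58.1) and 1 of 6 myeloid and mast cell genes (Spi1, 25.5 and 26.6). None of 3 lymphoid, 4 stromal and endothelial or 3 pluripotency markers was detected, at summed TPM of 0.37 and 0.21, 0.08 and 0.19, and 0 and 0. Itgam, Cd3e, Pecam1, Cdh5, Pou5f1, Nanog and Sox2 had 0 counts in both libraries. In bulk RNA, fewer cells that use a gene and less RNA per cell cannot be told apart.

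Most of the repair genes were present, but at modest levels. Of the 35, 26 (74.3%) were detected, meaning that TPM reached 1 in each library, against 38.3% of all protein-coding genes. The median TPM of the 26 was 9.13 and 6.37, against 21.2 and 19.6 for all 8219 detected protein-coding genes, and 7 of the 35 had a mean above the median of those genes. Over all 35 the median TPM was 6.47 and 3.33. Together they took 0.0706% and 0.0565% of the expected counts. Fance, a core complex subunit that contacts FANCD2, stood apart at the top with 127 and 122 TPM, a mean of 124 ± 3.71 (SD, n = 2), rank 1162 among protein-coding genes. It alone held 27.9% and 33.3% of the summed TPM of the 35 genes. Rad51b, part of a complex that assists strand exchange, stood at the bottom. It had 2 counts in replicate 1 (95% exact Poisson interval 0.242 to 7.22) and 0 in replicate 2 (same interval 0 to 3.69). Between these ends the order is loose: of 34 pairs of neighbours in the order of mean TPM, 29 had library ranges that overlapped. The pairs that did not were Fance over Mus81, Blm over Rad50, Bard1 over Ercc4, Fanci over Brip1 and Fancb over Rad51b.

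**Figure D1:**
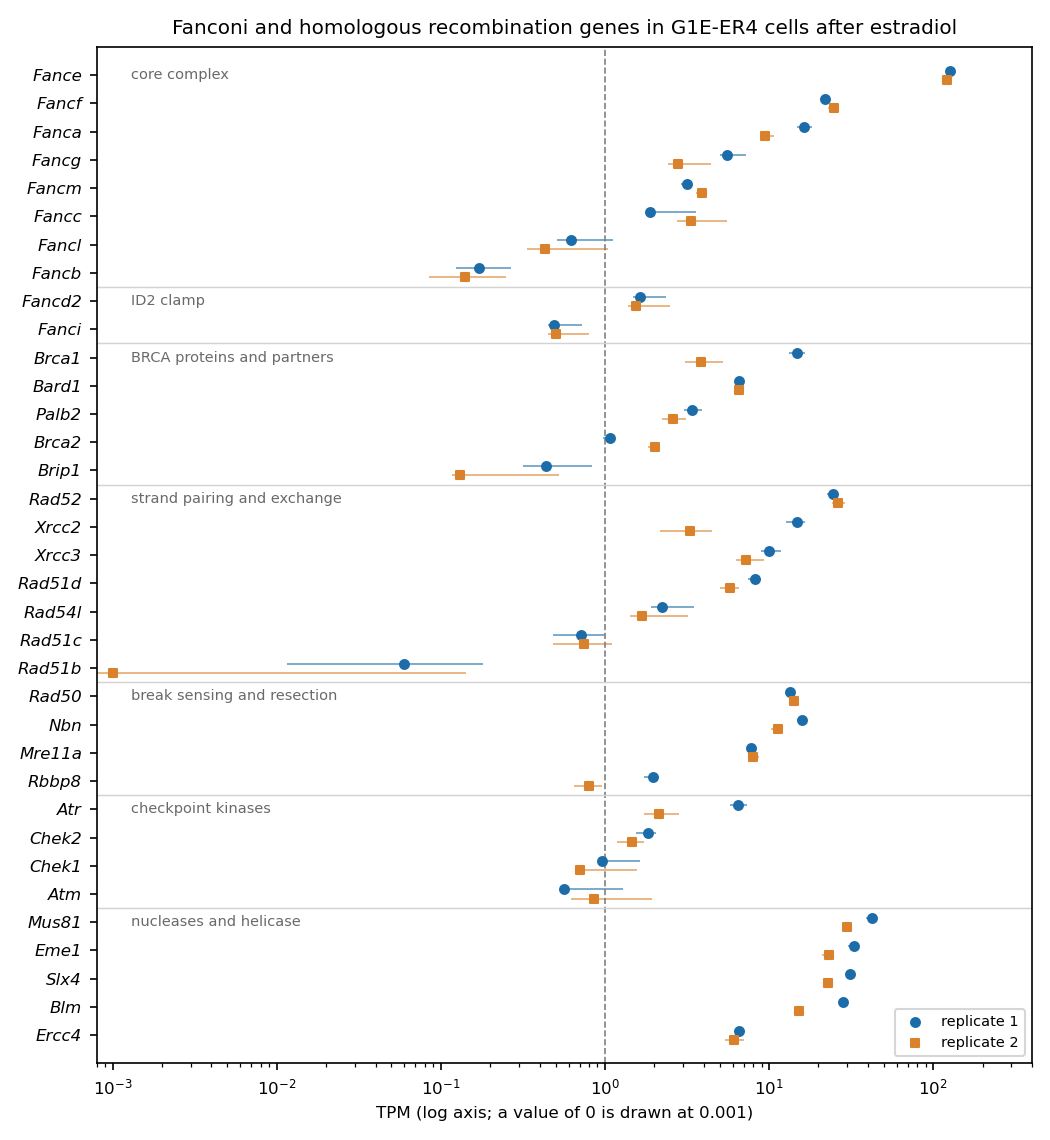
TPM on a log axis for each of the 35 genes in replicate 1 (circles) and replicate 2 (squares), grouped by role, with the authors' intervals as thin lines and the threshold of 1 dashed; a value of 0 is drawn at the left edge. Fance lies above the rest at 127 and 122, the nucleases and Blm form the highest group, and Brca1, Xrcc2 and Atr have the widest gaps between the libraries among detected genes.

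The bases before the start of the gene are shown for the most abundant gene, Fance, for the least abundant, Rad51b, and for 3 of the 4 genes with a match to the binding motif of E2F factors, which drive S phase genes. They are RefSeq promoters on GRCm38.p6, read 5′ to 3′ on the gene's own strand and cut where GENCODE M21 annotates an exon; capitals mark E2F matches and CCAAT boxes on either strand.
Fance (chr17:28313280-28313518, plus strand): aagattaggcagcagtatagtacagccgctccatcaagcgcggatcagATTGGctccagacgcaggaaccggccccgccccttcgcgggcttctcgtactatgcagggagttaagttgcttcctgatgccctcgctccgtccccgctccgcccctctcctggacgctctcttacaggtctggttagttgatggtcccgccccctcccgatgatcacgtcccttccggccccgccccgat
Rad51b (chr12:79297032-79297281, plus strand): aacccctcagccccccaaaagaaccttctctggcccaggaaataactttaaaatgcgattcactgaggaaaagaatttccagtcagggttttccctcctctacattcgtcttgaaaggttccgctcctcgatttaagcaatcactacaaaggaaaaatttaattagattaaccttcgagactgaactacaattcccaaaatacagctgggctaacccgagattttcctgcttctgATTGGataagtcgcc
Bard1 (chr1:71103147-71103222, minus strand): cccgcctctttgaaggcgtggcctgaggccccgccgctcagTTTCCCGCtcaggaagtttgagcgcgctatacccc
Brca2 (chr5:150522371-150522620, plus strand): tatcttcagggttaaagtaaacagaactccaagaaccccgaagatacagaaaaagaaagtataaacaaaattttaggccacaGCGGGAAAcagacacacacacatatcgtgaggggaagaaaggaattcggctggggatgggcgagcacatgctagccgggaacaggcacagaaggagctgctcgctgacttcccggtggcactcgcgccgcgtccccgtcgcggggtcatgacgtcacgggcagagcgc
Chek2 (chr5:110839778-110839978, plus strand): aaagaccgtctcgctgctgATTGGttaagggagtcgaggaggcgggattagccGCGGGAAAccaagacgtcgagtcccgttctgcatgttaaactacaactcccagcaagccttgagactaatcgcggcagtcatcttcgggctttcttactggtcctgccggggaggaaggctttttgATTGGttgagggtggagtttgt

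Promoters of 29 of the 35 genes were in the RefSeq table, and those of Fancd2, Rad51d, Xrcc2, Rbbp8, Rad50 and Nbn were not used. The 250 bases before the start were searched on both strands. An E2F motif (TTTCGCGC, TTTGGCGC, TTTCCCGC or TTTGCCGC) was found in 4 of 29 (13.8%), against 2.72% of 17492 genes, and its letters were widened after values had been seen. These were Fancg, Brca2, Bard1 and Chek2, whose TPM lay between 1.07 and 6.59. A CCAAT box was found in 17 (58.6%, against 39.5%), and a GC box (GGGCGG) in 16 (55.2%, against 45.8%). The cell cycle motif CHR (TTTGAA) was found in Bard1 alone (3.45%, against 16.9%). A GATA motif (AGATAA or TGATAA) was found in Rad52 alone (3.45%, against 16.8%). Motifs may share bases, as a CCAAT box and a GC box of Brip1 do. Fance and Rad51b, at opposite ends of the order, both hold a CCAAT box within the bases shown. A match describes letters and is not a bound site.

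Among the core complex genes, 6 of 8 were detected, and their levels spanned almost the whole range of the 35. After Fance came Fancf, the adaptor that ties subunits together, at 21.8 and 24.8 TPM. Fanca, the subunit most often mutated in patients, had 16.4 and 9.42 TPM. Fancg, which binds FANCA, had 5.54 and 2.79, and the DNA translocase gene Fancm had 3.14 and 3.89. Fancc, a subunit that pairs with FANCE and FANCF, had 1.88 and 3.33. Both genes below the threshold encode parts of the catalytic module: the ubiquitin ligase gene Fancl at 0.62 and 0.43 TPM (40 and 14 counts), and its partner Fancb at 0.17 and 0.14 (24 and 12 counts). Relative to Fanca within each library, Fance ran at 7.73 and 12.9, Fancf at 1.33 and 2.63, Fancl at 0.0378 and 0.0456 and Fancb at 0.0104 and 0.0149. In coding transcripts, described below, Fance over Fanca was 5.95 and 4.77, so it was then lower in replicate 2. Fancf over Fanca was then 2.72 and 2.996, Fancl over Fanca 0.0773 and 0.0447 and Fancb over Fanca 0.0212 and 0.0169. By expected counts Fance over Fanca was 3.72 and 4.29. Fancf over Fanca was 0.807 and 0.9898 by counts, so Fancf was then the lower of the pair. Fancl and Fancb were the lowest of the 8 genes in both libraries, whereas Faap100, which encodes another subunit of the catalytic module and was singled out after its values were seen, had 23.3 and 20.9 TPM.

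The clamp genes were low in both libraries. Fancd2 had 1.63 and 1.55 TPM and Fanci had 0.49 and 0.50, so that Fancd2 ran at 3.33 and 3.10 times Fanci, or 2.71 and 2.50 times by expected counts. Fanci shares 921 exon bases with Polg, the mitochondrial DNA polymerase gene on the opposite strand, which had 231 and 270 TPM. Whether the counting used strand is not given in the sources used here. In all, 17 of the 35 genes share exon bases with a gene on the opposite strand, and reads of such a pair cannot be told apart without strand. The same share over all protein-coding genes was not computed, so 17 of 35 is not shown to be unusual. Others with an abundant partner are Eme1 with Lrrc59 (221 bases) and Mrpl27 (75 bases), Rad54l with Lrrc41 (1184), Fancl with Vrk2 (462) and Xrcc3 with Klc1 (12).

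Of the BRCA genes and their partners, 4 of 5 were detected. Brca1 had 14.8 and 3.85 TPM, one of the widest gaps between the libraries among detected genes. Bard1, whose protein forms the ubiquitin ligase with BRCA1, had 6.58 and 6.59. Palb2, the bridge between BRCA1 and BRCA2, had 3.37 and 2.58 TPM. Brca2, central to strand exchange, had 1.07 and 2.01, and the authors' interval of its level in replicate 1 (0.969 to 1.14) includes the threshold of 1. The helicase gene Brip1 was not detected, at 0.44 and 0.13. Bard1 over Brca1 was 0.444 and 1.71 by TPM, so the libraries disagree on which partner is higher; the transcripts described below bear on this ratio.

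Strand pairing and exchange genes were detected in 5 of 7 cases. Rad52, a strand annealing gene, led with 24.4 and 26.4 TPM. Xrcc2 had 14.8 and 3.30, Xrcc3 10.0 and 7.26, and Rad51d 8.23 and 5.80. Rad54l, a motor protein that acts during strand exchange, had 2.24 and 1.67. Rad51c, which is shared by complexes with RAD51B and with XRCC3, was below the threshold at 0.71 and 0.75 TPM (42 and 23 counts), so Xrcc3 ran at 14.1 and 9.68 times its partner Rad51c. Only 0.01 and 0.02 TPM of Rad51c lay in transcripts annotated as protein-coding. Rad51b, another partner of Rad51c, was at 0.06 and 0.

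Of the 4 break sensing and resection genes, the 3 of the MRN complex, which binds broken ends, were detected. Rad50 had 13.4 and 14.2 TPM, Nbn 15.8 and 11.4 and Mre11a, the nuclease, 7.75 and 7.97. Rad50 over Mre11a was 1.72 and 1.78, and Nbn over Mre11a was 2.04 and 1.42. In coding transcripts, described below, Rad50 over Mre11a was 0.121 and 0.218, so Rad50 was then the lower of the pair. Rbbp8, which encodes the resection factor CtIP, was at 1.95 and 0.80 and so was not detected in both. Of the checkpoint kinases, which signal damage and stalled replication, Atr had 6.47 and 2.12 TPM and Chek2 1.82 and 1.47. Atm at 0.56 and 0.86 and Chek1 at 0.96 and 0.70 were below the threshold, and the authors' intervals of both include 1 in at least 1 library. Those intervals also include 1 for Fancl and Rad51c, so 5 of the 35 genes lie at the threshold within that error.

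The nucleases and the BLM helicase were the highest group, with all 5 detected and a median TPM of 31.2 and 22.8. Mus81, a nuclease of branched DNA, had 42.1 and 30.04 TPM and its partner Eme1 32.7 and 23.0, a ratio of Eme1 over Mus81 of 0.777 and 0.767. In coding transcripts the same ratio was 1.48 and 6.16, so Eme1 was then the higher. Slx4, the nuclease scaffold, had 31.2 and 22.8, and Ercc4, whose XPF protein cuts beside crosslinks, had 6.53 and 6.15. Blm, the helicase that dissolves joined molecules, had 28.1 and 15.2 TPM.

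Gene totals hide which transcripts were counted, and for several of these genes most of the TPM fell on transcripts not annotated as protein-coding. That type does not mean a full-length message. Fance-213, of 542 bases, is among the protein-coding transcripts of Fance, with 15.6 and 9.73 TPM. By the biotypes of GENCODE M21, 9 of the 26 detected genes (34.6%) had under 50% of their TPM in protein-coding transcripts in both libraries, against 18% of all detected protein-coding genes. By expected counts it was 6 of 26 (23.1%), against 11.3%. The median share in coding transcripts was 83.9% and 83.0% for the 26 genes and 99.4% and 99.7% for all detected protein-coding genes. With coding transcripts alone, 21 of the 35 were detected, against 35.9% of protein-coding genes, and Fancg, Rad52, Rad50, Atr and Mus81 dropped below the threshold. These splits were computed after gene totals had been seen. They rest on the authors' assignment of reads among overlapping transcripts, and the part that assignment plays was not tested.

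In Mus81, the transcript Mus81-201, marked for nonsense-mediated decay (the pathway that destroys messages with an early stop), took 44.4% and 53.7% of the TPM, and coding transcripts had 3.73 and 0.76 TPM. In Rad50, Rad50-204 of the same type took 89.2% and 87.7%, leaving 0.94 and 1.74 TPM coding. Rad52-213, a retained intron transcript, took 66.9% and 75.1%, and the coding level of Rad52 was 0 and 0.43. Slx4 was led by the retained intron transcript Slx4-202 in replicate 1 (36.3%) and by the decay transcript Slx4-205 in replicate 2 (37.6%), with 4.96 and 2.69 TPM coding. Eme1 was led by the non-coding Eme1-204 (48.2%) in replicate 1 and by the non-coding Eme1-202 (46.6%) in replicate 2, with 5.51 and 4.68 coding. By expected counts the coding Eme1-201 led Eme1, with 44.5% and 49.6%. Fance kept its lead: its decay transcript Fance-201 took 38.2% and 49.6%, and its coding transcripts still had 47.7 and 39.5 TPM, the highest of the 35. Fancf, Blm and Nbn came next in coding TPM. The high median of the nuclease group depends on this choice, since its median coding TPM was 5.51 and 2.98. In replicate 2 this group was then no longer the highest, as break sensing and resection genes had 4.855 and core complex genes 3.61.

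**Figure D2:**
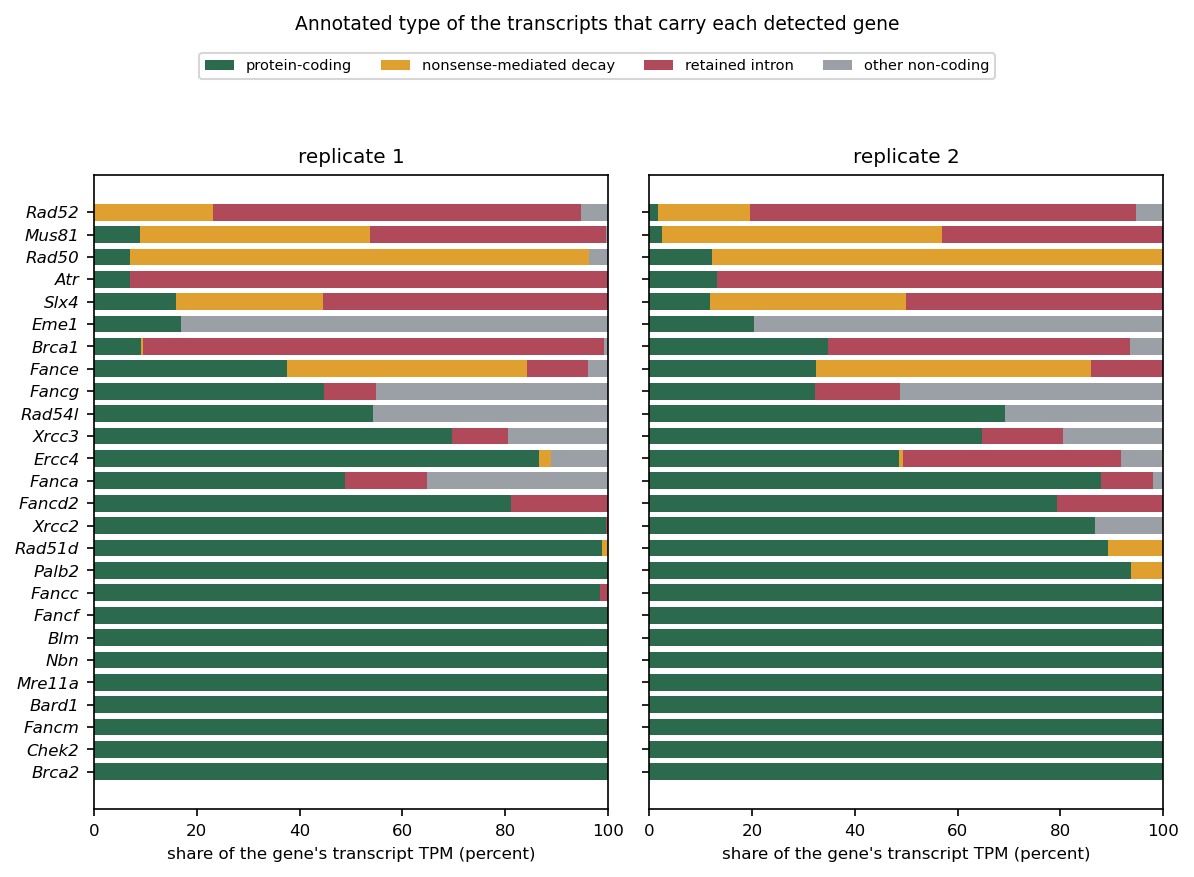
Share of the TPM of each of the 26 detected genes (percent) that fell on protein-coding, decay-marked, retained intron and other transcripts, in replicate 1 and replicate 2. Rad50, Mus81, Rad52 and Atr hold little in coding transcripts in both libraries, whereas Blm, Nbn, Fancf and Bard1 hold 100% there.

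In the 3 detected genes with the widest gaps in TPM between the libraries, most of the TPM sat on a short transcript. Brca1-202, a retained intron transcript of 539 bases, took 89.3% and 56.9% of the TPM of Brca1. By expected counts it took 41.4% and 13.3%, and the coding Brca1-201 took 55.0% and 78.4%. The coding transcripts of Brca1 had 1.35 and 1.34 TPM, so Bard1 over Brca1 in coding TPM was 4.87 and 4.92, with Bard1 above in both libraries. Xrcc2-204, a coding transcript of 464 bases, took 89.8% and 68.5% of the TPM of Xrcc2. By counts it took 47.1% and 24.8%, and the longer coding Xrcc2-201 took 51.9% and 64.0%. Atr-210, a retained intron transcript, took 87.0% and 79.8% of the TPM of Atr, and the full-length Atr-201 had 0.45 and 0.28 TPM. By counts Atr-210 took 49.5% and 33.7%, and Atr-201 took 37.7% and 52.1%. Slx4 over Ercc4 was 4.78 and 3.70 in gene TPM and 0.876 and 0.903 in coding TPM.

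Of 21 detected genes with 2 or more transcripts, the leading transcript differed between the libraries in 6, namely Eme1, Rad54l, Slx4, Fancc, Fancg and Palb2. Its share differed by over 20 points in 6, namely Fancc, Palb2, Brca1, Ercc4, Fanca and Xrcc2. Neither rate was computed over all detected protein-coding genes, so neither is shown to be unusual for the repair genes. Fancc-211 (417 bases) took 26.5% and 67.0% of the TPM of Fancc but 3.27% and 16.2% of its counts. Palb2-201 took 29.9% and 56.8%, Ercc4-201 86.7% and 48.5%, and Fanca-201 48.8% and 88.0%. Fancg-201 took 44.8% and 32.3% beside the non-coding Fancg-206 at 44.5% and 47.7%. By counts Fancg-201 took 78.3% and 69.9%, and Fancg-206 took 5.98% and 8.33%. Rad54l-202 took 30.2% and 45.8%. Steadier genes were Fancd2, where the coding Fancd2-201 took 62.2% and 61.9%, and Xrcc3, where Xrcc3-201 took 69.7% and 64.7%.

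Levels among the 35 genes ran higher with the GC content of the longest coding transcript. Spearman's rho of GC content and TPM over the 35 genes was 0.590 and 0.622 (Pearson's r of GC content and log2(TPM + 1) 0.681 and 0.730), against a rho of 0.188 and 0.216 over 10839 protein-coding genes with counts in both libraries. With coding TPM it was 0.503 and 0.464. These are correlations across genes that share the same libraries and are given as descriptions. Of 12 genes under 45% GC, among them Fancb, Fancl, Brca2, Atm and Atr, 5 were detected, with a median of 1.02 and 0.83 TPM. From 45% to 50%, 9 of 11 were detected, and from 50% to 55%, 8 of 8. All 4 above 55%, namely Fance, Fancf, Xrcc3 and Mus81, were detected, with a median of 32.0 and 27.4 TPM. Over all protein-coding genes the detected share was 25.6%, 39.8%, 44.2% and 47.8% in the same bins. The part of GC content in these levels was not tested. The median GC content was 46.2% for the 35 genes and 50.9% for detected protein-coding genes.

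**Figure D3:**
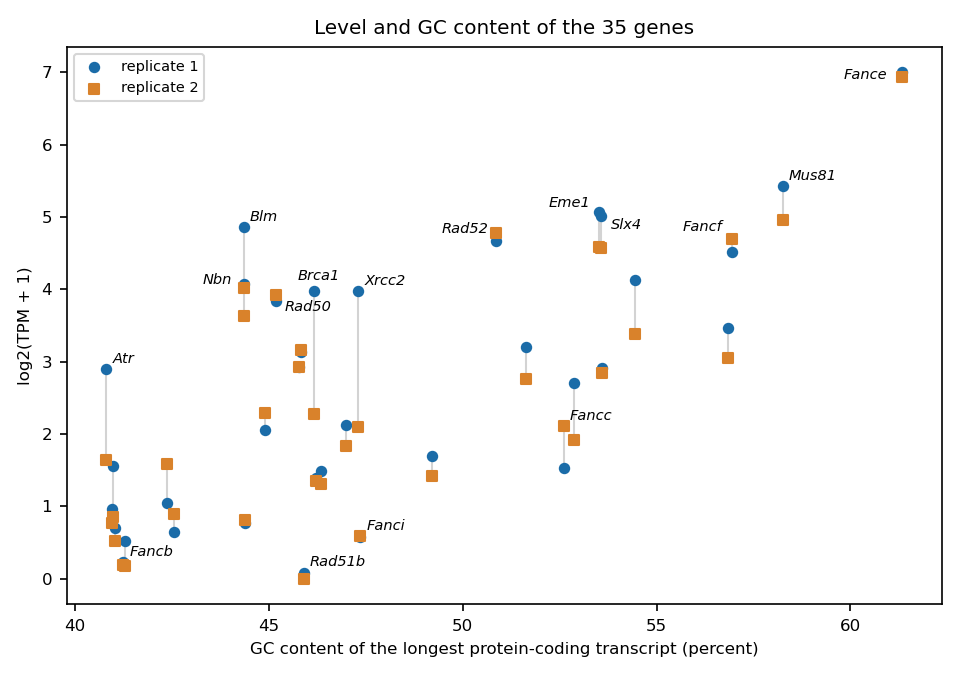
Level of each of the 35 genes, as log2(TPM + 1), against the GC content (percent) of its longest protein-coding transcript, with replicate 1 as circles and replicate 2 as squares joined by a line. Fance, at 61.3% GC, is at the upper right, and the genes under 45% GC include most of those below a TPM of 1.

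Several of these genes share a start region with a neighbour. A protein-coding gene pointing away from a start within 1000 bases was found for 10 of the 35 (28.6%), against 12.8% of detected and 6.83% of all protein-coding genes. The partner was often the more abundant. Nbr1, 194 bases from Brca1, had 105 and 95.8 TPM, Hscb, 202 bases from Chek2, had 42.7 and 28.9, and Emc3, 30 bases from Fancd2, had 26.8 and 37.2. Dctn5, 56 bases from Palb2, had 4.20 and 3.34, close to Palb2 itself. Npat beside Atm had 1.08 and 0.55, and Mospd2 beside Fancb 0.47 and 0.14. Tex14, beside Rad51c, had 0 and 0.02, below its partner. The others were Zfyve26 with Rad51b, Pomgnt1 with Rad54l and Zfyve21 with Xrcc3. By chromosome, 7 of the 35 genes lie on chromosome 11, against 7.57% of protein-coding genes.

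Other genes of DNA repair, checkpoint control, replication and division were taken from 7 lists. All 11 core complex and clamp partners were detected, with a median TPM of 23.3 and 20.9, led by the ubiquitin gene Ubb (1516 and 554) and Usp1, which removes ubiquitin from FANCD2 (518 and 900). The lowest were the nuclease gene Fan1 (2.19 and 2.18) and the ubiquitin ligase gene Rad18 (2.84 and 1.29). Of 18 recombination partners, 14 were detected, with a median of 6.88 and 4.48. Swi5 (235 and 87.2) and the single-strand binding gene Rpa1 (109 and 74.0) led them. Wrn, Fignl1, Mcm9 and the meiotic recombinase gene Dmc1 were not detected, at 3.73 and 0.98, 2.27 and 0.94, 0.59 and 0.66, and 0 counts in both.

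In the BRCA1-A and damage chromatin list, 11 of 12 genes were detected (median 17.5 and 20.9), led by the histone gene H2afx (813 and 1306) and Babam1 (102 and 120), with Uimc1 (5.68 and 1.71) low and Brcc3 (0.47 and 0.41) not detected. Of 12 checkpoint partners, 11 were detected (median 15.4 and 16.9). Cdc25a, the phosphatase that the kinases restrain (40.9 and 46.7), and the ATR activator gene Topbp1 (42.9 and 36.7) led, Etaa1 was low (2.61 and 1.80) and Tipin was not detected (2.00 and 0.61). Junction partners were detected in 8 of 9 cases (median 6.41 and 4.40), with Ercc1, the partner of XPF, at 111 and 106 and Eme2 at 32.5 and 42.2. Dclre1b was at 1.84 and 1.70, and Dclre1a was not detected (2.13 and 0.92).

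End joining, the competing route of break repair, had 8 of 12 genes detected (median 6.35 and 3.59). Parp1 (162 and 176) and Lig3 (69.0 and 97.3) were high, whereas Dclre1c (0.86 and 1.32), Lig4 (1.00 and 0.83), Nhej1 (0.64 and 0.62) and Xrcc4 (0.51 and 0.26) were not detected. All 15 replication and division genes were detected, with a median of 63.0 and 46.4 TPM. They ran between Ccna2 (537 and 627) and Mcm2 (277 and 313) at the top and Mcm7 (17.7 and 14.4) and Ccnb1 (4.88 and 3.56) at the bottom. The 35 repair genes were thus lower in the median than this list in both libraries.

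Counting coding transcripts alone lowered the number detected in 6 of the 7 lists. In the BRCA1-A and damage chromatin list, 7 of 12 genes were then detected, with a median coding TPM of 2.21 and 1.46. Recombination partners were detected in 11 of 18 cases (median 2.26 and 1.33), junction partners in 7 of 9 (3.42 and 4.0) and end joining genes in 6 of 12 (2.40 and 1.17). Ercc1 had 3.42 and 4.89 TPM in coding transcripts. Ccna2 had 60.3 and 69.3 there, below Mcm2 at 277 and 313. For core complex and clamp partners it was 10 of 11 (median 20.2 and 19.1), for checkpoint partners 10 of 12 (15.3 and 16.9) and for replication and division genes 15 of 15 (45.9 in both libraries).

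**Figure D4:**
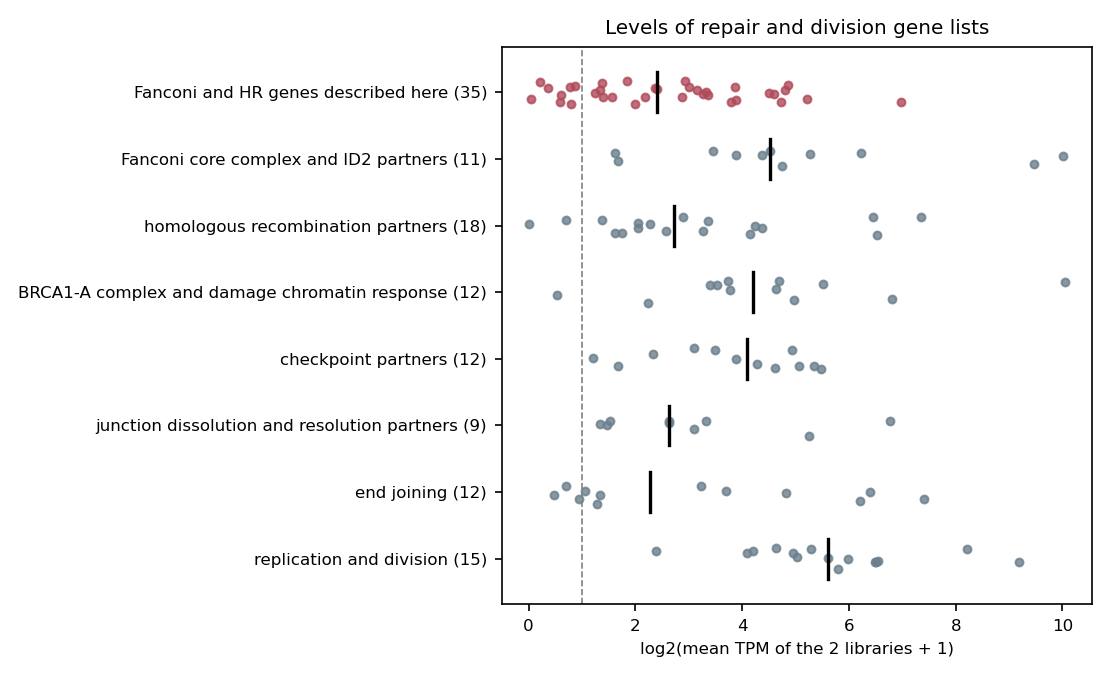
Each gene of the 35 and of the 7 lists of repair, checkpoint and division genes as a point, at log2 of its mean TPM over the libraries plus 1, with the list medians as bars and a dashed line at a TPM of 1. Replication and division genes lie highest, and the 35 genes spread widely, with Fance at their top.

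Between the libraries, the 35 genes were somewhat lower in replicate 2. The log2 ratio of replicate 2 over replicate 1, from expected counts scaled by TMM (a scaling that takes most genes as equal), had a median of -0.27 over the 34 genes with at least 10 counts in both, against -0.02 over 9542 protein-coding genes. It was below 0 for 23 and above 0 for 11 (67.6% below, against 51.6%). A difference of at least 2-fold was seen in 6 of 34 (17.6%), against 8.95% of protein-coding genes. Lower in replicate 2 by that fold were 5, against 7.3%: Xrcc2 (-1.48), Atm (-1.32), Fancg (-1.19), Rbbp8 (-1.19) and Atr (-1.06). Higher was 1, against 1.65%, namely Brca2 at 1.00. With library totals in place of TMM the median ratio was -0.47 for the 34 genes and -0.22 for protein-coding genes, which is a shift of -0.20 over all protein-coding genes, and 29 genes lay below 0 and 5 above. Then 8 genes were lower by 2-fold, with Fancl, Brip1 and Brca1 added, and none was higher, against 12.1% of protein-coding genes by 2-fold in either direction. The median absolute log2 ratio of the 34 genes was 0.32, against 0.35 for protein-coding genes. GC content moved with this ratio, with a Spearman's rho of 0.251 over the 34 genes and 0.275 over protein-coding genes, and its part was not tested.

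TPM and scaled counts differ in direction for Atm and, by smaller amounts, for other genes such as Fance and Rad51c. Atm had 269 and 70 counts but 0.56 and 0.86 TPM, as the authors' effective length for the gene was 9561 and 2309 bases. Its log2 ratio of replicate 2 over replicate 1 was -1.32 by scaled counts, whereas its TPM was higher in replicate 2. For Fance, the log2 ratio by scaled counts was 0.20, beside 127 and 122 TPM, and for Rad51c -0.25, beside 0.71 and 0.75 TPM. For Fancc, the log2 ratio by scaled counts was 0.02, beside 1.88 and 3.33 TPM, and for Fanca -0.008, beside 16.4 and 9.42 TPM.

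**Figure D5:**
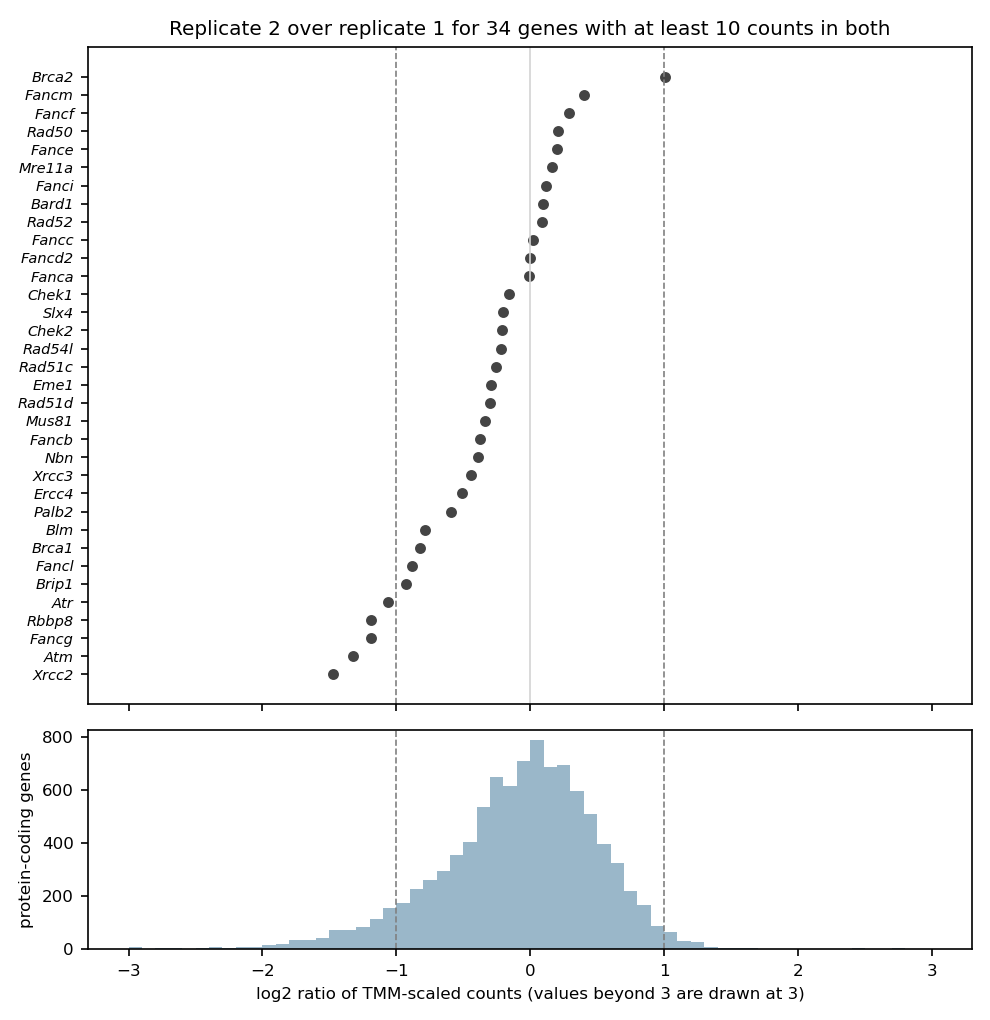
Log2 ratio of replicate 2 over replicate 1 for each of the 34 genes that reached 10 counts in each library, above a histogram of the same ratio over protein-coding genes, with dashed lines at 2-fold either way. Xrcc2, Atm, Fancg, Rbbp8 and Atr lie beyond 2-fold lower, and Brca2 at 2-fold higher.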

How the data were processed

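The authors deposited a gene table and a transcript table for each library, made from alignments to the transcriptome on mm10 with GENCODE M4, per the notes deposited beside the tables; which aligner and quantifier were used is not given in the sources used here. Deposited expected counts are estimated fragments and are not normalized. The deposited TPM values are abundances divided by effective length and set to a fixed sum, with the authors' posterior mean and interval beside them. The deposited FPKM values served only as an alternative.

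Identifiers without version were matched to GENCODE M21 (GRCm38, the assembly of mm10), which gave names, positions, types and GC content, for 42462 of 43346 gene rows. The unmatched rows held 0.248% and 0.257% of the counts. Expected counts were rounded for ratios, with TMM factors from edgeR 4.0.16 in R 4.3.3, a prior count of 0.5 and a minimum of 10 counts in both libraries. DESeq2 1.42.0 gave an alternative scaling. Tables were joined with pandas 2.3.3 in Python 3.11.15. The ratio step was tested on simulated data. Errors are SDs over 2 libraries, and intervals of counts cover counting error only.

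The 35 genes, the lists and the rules were chosen with earlier results of these data known. All 35 are named. Of each list, the 2 highest and 2 lowest by mean TPM and any not detected are named. Transcripts are named where the leader or its share changed between libraries, and for the genes with the most transcripts of at least 10% in both. Faap100, the markers, genes beside or overlapping the 35, and the transcripts of Rad50, Rad52, Atr and Fance were named after their values were seen. Hrob was not analysed here. Some genes of the lists are not reported here, and were left out of the counts and medians.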

Additional observations from a re-analysis of the deposited data

How the results depend on the processing

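Of the 35 genes, 15 reached a TPM of 5 in each library, against 26 that reached 1, and between 25 and 34 under the other limits and units tried. The median of mean TPM was 4.30 over all 35 genes and 7.86 over those with a mean of at least 1. The median log2 ratio was -0.47 with library totals, against -0.27 with TMM, and between -0.39 and -0.20 under the other settings. Leaving out 1 library gave 26 to 27 genes detected and a median TPM of 3.33 to 6.47. Genes past 2-fold numbered 5 to 8. In alternatives added after the data were seen, counting decay-marked transcripts as coding left 24 genes detected and 6 under 50% coding, against 21 and 9. By expected counts, 13 of 19 partner ratios and 15 of 21 leading transcript shares moved by more than 1 SD. No paired analysis was possible because the libraries form 1 group. Genes under about 50 counts, such as Fancb, Fancl, Rad51b and Rad51c, are limited by depth.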
